A study of Mus musculus with 10 samples.

Results

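The Hippo-YAP genes described here are 10 of the 38922 genes listed for each liver: *Ctgf*, *Cyr61*, *Thbs1*, *Ankrd1*, *Amotl2*, *Ajuba*, *Lats2*, *Yap1*, *Wwtr1* and *Tead1*. They were picked by name as textbook factors and targets of the pathway, with earlier results of these data known, and the choice used no measured value. *Ctgf* and *Cyr61* are called *Ccn2* and *Ccn1* in newer annotation. RNA was sequenced from the livers of 10 wild-type male C57BL/6N mice that were 6 weeks old, 1 library per mouse. Of these, 5 mice received saline by intraperitoneal injection and 5 received 0.5 µg/g body weight of an antibody that activates CD95 (CD95-Ab), a death receptor whose activation kills hepatocytes. All livers were taken at 6 h, so the comparison asks which transcripts differed between an acutely injured liver and a control liver at 1 time. The libraries hold whole liver, a mixture of hepatocytes with endothelial, stellate, biliary and blood cells.

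The Hippo pathway is a kinase cascade that restrains growth. Its core kinases phosphorylate the coactivators YAP, the product of *Yap1*, and TAZ, the product of *Wwtr1*, and so hold them in the cytoplasm. When the cascade is quiet, both coactivators enter the nucleus, bind TEAD transcription factors such as TEAD1 and raise the transcription of target genes. In the liver the pathway is known for its control of organ size and of the biliary state of cells, and *Ctgf*, *Cyr61* and *Ankrd1* are the targets most often read as its output.

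TEAD proteins bind the 6 letters GGAATG, which read CATTCC on the other strand. These letters were searched on both strands in the 250 bases before each annotated start in the RefSeq promoter table (GRCm38.p6), which held 7 of the 10 genes. *Ctgf*, *Thbs1* and *Tead1* were not among its entries. In 6 of the 7 genes at least 1 match was present, with 8 distinct matches in all, and *Lats2* had none in either of its annotated starts. Counted by window, 7 of the 9 windows of these genes held a match, with the overlapping windows of *Wwtr1* counted apart. Over the whole table, 12.6% of 32851 windows held a match and 1.02% held at least 2. The 30 bases around each match are shown to let the settings of the motif be compared between genes, with the motif in capitals and each sequence read on the strand of its gene.
Cyr61: cgcgccaaccaaCATTCCtgagatgtttga
Ankrd1, first match: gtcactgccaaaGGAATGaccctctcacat
Ankrd1, second match: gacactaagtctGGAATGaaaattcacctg
Amotl2: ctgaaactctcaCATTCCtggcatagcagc
Ajuba, first match: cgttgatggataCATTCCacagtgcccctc
Ajuba, second match: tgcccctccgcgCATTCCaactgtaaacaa
Yap1: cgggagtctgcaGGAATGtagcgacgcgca
Wwtr1: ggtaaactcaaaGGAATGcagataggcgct

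The *Cyr61* stretch lies at chr3:145650071-145650100 on the minus strand, and its motif begins 103 bases before the start. The *Ankrd1* stretches lie at chr19:36120037-36120066 and chr19:36119950-36119979 on the minus strand, 210 and 123 bases before the RefSeq start, in a window that GENCODE M21 annotates as exon in all 250 bases. The *Amotl2* stretch lies at chr9:102717727-102717756 on the plus strand, 65 bases before the start, in a window of which 136 bases are GENCODE exon. The *Ajuba* stretches lie at chr14:54577830-54577859 and chr14:54577808-54577837 on the minus strand, 186 and 164 bases before the start. The *Yap1* stretch lies at chr9:8004720-8004749 and the *Wwtr1* stretch at chr3:57576029-57576058, both on the minus strand and 141 and 136 bases before their starts, for *Wwtr1* the more upstream of the RefSeq starts listed. The *Ajuba* and *Yap1* windows, and the *Cyr61* window, held no GENCODE exon base. Of the genes with a match *Cyr61*, *Ankrd1* and *Wwtr1* rose after CD95-Ab, *Amotl2* fell, and *Ajuba* and *Yap1* did not pass the test. A match describes the letters and is not evidence of binding.

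Depth ranged from 25965699 to 62097636 estimated fragments per saline library and from 27480796 to 44962196 per CD95-Ab library. Levels are given as counts per 1000000 of a mouse's adjusted total (CPM). That total was taken over the genes tested and multiplied by edgeR's TMM factor, which adjusts for the composition of the library. A limit of 3 fragments corresponds to between 0.0483 and 0.116 per 1000000 of the unadjusted total, and covers counting error only. The sum over hepatocyte markers, 6 genes such as *Alb*, was highest of all marker sums in every mouse, from 102397 to 127073 CPM after saline and from 45210 to 81307 CPM after CD95-Ab. Markers of other cells moved with the treatment: the sum over erythroid markers went from 135 to 325 CPM after saline to between 1064 and 34009 CPM after CD95-Ab. In the same livers *Rn7sk*, a non-polyadenylated nuclear RNA, went from at most 0.808 CPM to between 355 and 1301 CPM. *Rpph1*, also non-polyadenylated, went from at most 0.0889 CPM to between 1.55 and 4.81 CPM. *Rmrp*, another such RNA, went from at most 0.0185 CPM to between 0.289 and 1.71 CPM. The rise of these RNAs coincided with the treatment in every mouse, and its part in the Hippo-YAP results was not tested. Replicate 3 of the CD95-Ab group was the highest of its group in 7 of the 10 Hippo-YAP genes and in 8 of 10 marker sums, so its values are given beside the results that rest on it.

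Of the 10 Hippo-YAP genes, all tested, 6 rose after CD95-Ab, 1 fell and 3 did not pass the test, at a false discovery rate (FDR) of 0.05 in edgeR's quasi-likelihood test with Benjamini-Hochberg adjustment over 13719 genes. In the same test 25.4% of all genes were higher, 22% were lower and 47.3% passed in either direction, so nearly every second gene passed. The 6 that rose were the secreted proteins *Ctgf*, *Cyr61* and *Thbs1*, the nuclear target *Ankrd1*, the coactivator gene *Wwtr1* and the DNA partner *Tead1*. In each of them every CD95-Ab mouse was above every saline mouse, which held for 18.6% of all genes tested. With a log2 fold change of at least 2 required as well, 4 genes passed (*Ctgf*, *Cyr61*, *Thbs1* and *Ankrd1*), all of them higher, as were 6.59% of all genes tested by the same rule. *Ankrd1* passed the filter on low counts only through the CD95-Ab group and had to differ, and without it the counts are 5 higher and 3 past the log2 fold change of 2. Here, passing only through the CD95-Ab group means that no saline mouse reached the filter's cutoff of 0.328 CPM. A gene below that cutoff in some saline mice could also not have passed on the saline group alone. The median log2 fold change of the 10 genes was 1.26 and that of all genes tested was 0.01. Because bulk tissue was sequenced, fewer cells of a type and less RNA per cell cannot be told apart in any of these values.

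**Figure D1:**
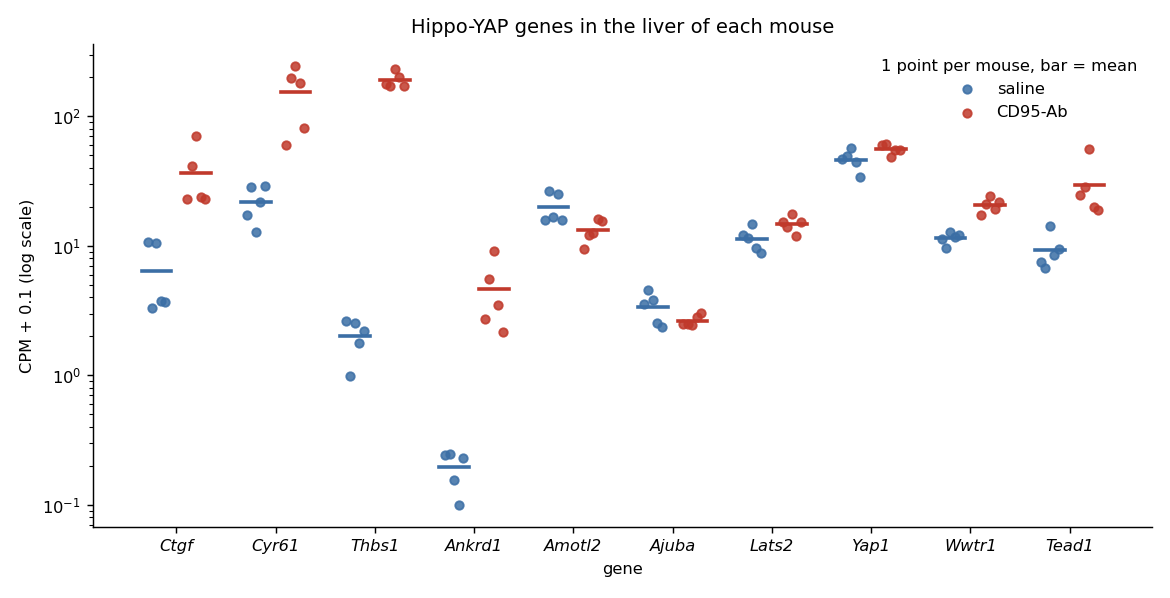
Level of each Hippo-YAP gene in each liver, as CPM plus 0.1 on a log axis, with 1 point per mouse (5 saline in blue, 5 CD95-Ab in red) and a bar at the group mean. The points of both groups are apart for Ctgf, Cyr61, Thbs1, Ankrd1, Wwtr1 and Tead1 and overlap for the other 4 genes.

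**Figure D2:**
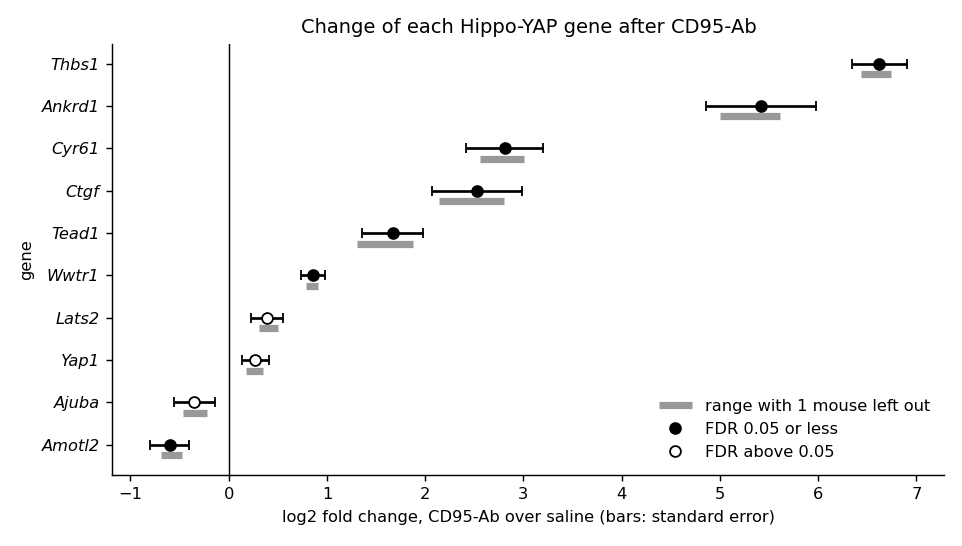
Log2 fold change of each Hippo-YAP gene, CD95-Ab over saline, with its standard error as whiskers, ordered by size. Filled points passed an FDR of 0.05, open points did not, and the grey bar spans the values with 1 mouse left out at a time. Thbs1 lies furthest right at 6.62 and Amotl2 furthest left at −0.60.

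Among the secreted targets *Thbs1* changed most. It encodes thrombospondin 1, a matrix protein that activates latent TGF-beta and restrains vessel growth, and lies at chr2:118111876-118127133 on the plus strand. Its level in the saline mice, from replicate 1 to 5, was 2.52, 0.889, 2.42, 1.69 and 2.10 CPM. In the CD95-Ab mice it was 178, 172, 233, 202 and 171 CPM. The lowest treated mouse was far above the highest control, and the treated mice lay close together, with a ratio of 1.37 between the highest and the lowest. The rise was 98.7-fold (log2 fold change 6.62, SE 0.28, edgeR FDR 9.23e-08), which placed *Thbs1* at rank 41 of 13719 genes by log2 fold change. Platelets store thrombospondin 1, and the platelet markers, 8 genes such as *Pf4* and *Itga2b*, summed to between 2.51 and 9.46 CPM after saline and between 10.7 and 33.8 CPM after CD95-Ab. Of the 6 platelet markers tested 5 were higher, beside 25.4% of all genes tested. Among these 5, *Gp9* and *Gp5* passed the filter on low counts only through the CD95-Ab group. *Ppbp*, at 0.0282 to 2.26 CPM after saline, was below the filter's cutoff in some saline mice and could not have passed on that group alone. None of the 8 was at 0 in every mouse, and 3 were at 0 in at least 1 saline mouse. Their part in the *Thbs1* result was not tested. Within the CD95-Ab group the *Thbs1* level was 178 CPM in replicate 1, where the platelet sum was lowest at 10.7 CPM, and 233 CPM in replicate 3, where it was highest at 33.8 CPM. In replicates 2, 4 and 5 *Thbs1* was at 172, 202 and 171 CPM beside platelet sums of 22.6, 32.5 and 17 CPM.

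*Cyr61* encodes CCN1, a matricellular protein that binds integrins, and lies at chr3:145646976-145649981 on the minus strand. In saline mice its level was 17.3, 28.5, 12.7, 21.9 and 28.8 CPM. In CD95-Ab mice it was 60.4, 198, 245, 180 and 81.1 CPM. Replicates 1 and 5 of the treated group were well below the other 3, yet still above every control, and the highest treated mouse was 4.06 times the lowest. The rise was 7-fold (log2 fold change 2.81, SE 0.39, edgeR FDR 0.000131).

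*Ctgf* encodes CCN2, the related matricellular protein known for its rise in liver fibrosis, and lies at chr10:24595442-24598683 on the plus strand. Its saline levels were 10.6, 3.20, 10.4, 3.66 and 3.58 CPM. After CD95-Ab they were 23.0, 41.6, 70.7, 23.6 and 22.7 CPM. Controls fell into a pair near 10 CPM and 3 mice below 4 CPM, and among the treated mice replicates 2 and 3 stood above 3 nearly equal ones. The rise was 5.76-fold (log2 fold change 2.53, SE 0.46, edgeR FDR 0.000803), and its log2 value ranged from 2.14 to 2.80 with 1 mouse left out at a time. An antisense transcript that overlaps *Ctgf* had at most 6 fragments in any mouse.

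*Ankrd1*, which encodes an ankyrin-repeat protein of the nucleus and of muscle sarcomeres, lies at chr19:36111961-36120099 on the minus strand. It was nearly silent after saline, at 0.141, 0.148, 0.0563, 0 and 0.130 CPM, which were 6, 5, 2, 0 and 7 fragments. After CD95-Ab its level was 2.60, 5.48, 9.08, 3.39 and 2.08 CPM, from at least 81 fragments in each mouse. The fitted rise was 42.8-fold (log2 fold change 5.42, SE 0.56, edgeR FDR 1.6e-05), with 20 fragments in all behind the saline side, and the log2 value was 4.85 with a prior count of 2.

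None of *Amotl2*, *Lats2* and *Ajuba*, the feedback and adaptor genes, was called higher. *Amotl2* encodes angiomotin-like 2, a junction protein that binds YAP and is itself a target, and lies at chr9:102716672-102733418 on the plus strand. Its saline levels were 15.7, 26.4, 16.5, 24.9 and 15.7 CPM. Its levels after CD95-Ab were 9.40, 12.1, 12.5, 15.9 and 15.5 CPM. Of the treated mice 4 were below every control, and replicate 4 was within the control range. No Hippo-YAP gene had every treated mouse below every control, which held for 14.7% of all genes tested. It fell by 0.60 on the log2 scale (SE 0.20, edgeR FDR 0.0265), to 0.661 of the saline level. The call rests on single mice: edgeR's FDR was 0.067 without saline replicate 2 (log2 fold change −0.48), 0.0547 without saline replicate 4 (−0.53), 0.0593 without CD95-Ab replicate 1 (−0.50) and 0.0609 without CD95-Ab replicate 2 (−0.57).

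*Lats2* encodes a core kinase that phosphorylates YAP and TAZ, is induced by them as feedback, and lies at chr14:57689662-57758388 on the minus strand. Saline levels were 12.0, 11.3, 14.6, 9.58 and 8.68 CPM, and CD95-Ab levels were 15.2, 14, 17.4, 11.8 and 15.1 CPM. Of the treated mice 3 were above every control. The difference did not pass the test (log2 fold change 0.39, SE 0.16, edgeR FDR 0.0587), and it did pass without saline replicate 3 (0.50, FDR 0.0202), without CD95-Ab replicate 4 (0.45, FDR 0.0266) and where at least 10 fragments in every mouse were required (0.41, FDR 0.046). With the replicate number as a block it also passed (0.40, edgeR FDR 0.0403). An exact permutation test on log2 of CPM plus 0.1 gave a p of 0.0397, not adjusted over genes (difference 0.40).

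*Ajuba* encodes a LIM-domain adaptor that holds LATS kinases at junctions, and lies at chr14:54567472-54577558 on the minus strand. Saline levels were 3.46, 4.48, 3.69, 2.42 and 2.28 CPM, and CD95-Ab levels were 2.37, 2.39, 2.35, 2.70 and 2.94 CPM. The groups overlapped throughout, with 10.3% as the coefficient of variation of the treated mice and 28.1% as that of the controls. The log2 fold change was −0.35 (SE 0.21, edgeR FDR 0.18) and did not pass.

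Of the coactivators *Wwtr1* rose and *Yap1* did not pass the test. *Wwtr1*, at chr3:57455649-57575910 on the minus strand, was at 11.1, 9.55, 12.6, 11.7 and 12.1 CPM after saline. It was at 17.2, 20.8, 24.3, 19.3 and 21.6 CPM after CD95-Ab. Both groups were tight and apart, and the rise was 1.81-fold (log2 fold change 0.86, SE 0.12, edgeR FDR 0.000161).

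*Yap1*, at chr9:7931999-8004596 on the minus strand, was at 46.7, 48.9, 56.5, 44.2 and 34.2 CPM after saline. After CD95-Ab it was at 59.7, 60.6, 48.5, 54.8 and 54.8 CPM. Only replicates 1 and 2 of the treated mice were above every control. Its log2 fold change was 0.27 (SE 0.14, edgeR FDR 0.117), and it ranged from 0.18 to 0.35 with 1 mouse left out.

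*Tead1*, the DNA-binding partner, lies at chr7:112679318-112906807 on the plus strand. Its saline levels were 7.43, 6.67, 14.2, 8.47 and 9.34 CPM, and its CD95-Ab levels were 24.6, 28.6, 55.7, 19.7 and 18.7 CPM. Replicate 3 was highest in each group, and the lowest treated mouse was above the highest control. The rise was 3.19-fold (log2 fold change 1.67, SE 0.31, edgeR FDR 0.001). Without CD95-Ab replicate 3 the log2 fold change was 1.31 (edgeR FDR 0.000866).

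Levels of different genes can be compared only per length, for which the deposited FPKM values (estimated fragments scaled to gene length and library size) were used. After saline the mean FPKM was highest for *Yap1* at 11.9 ± 2.95 (SD, n = 5) and *Cyr61* at 11.4 ± 3.62, followed by *Amotl2* at 5.83 ± 1.9, *Ctgf* at 2.82 ± 1.86, *Wwtr1* at 2.53 ± 0.227 and *Lats2* at 2.48 ± 0.672. *Tead1* at 1.10 ± 0.386 and *Ajuba* at 0.998 ± 0.365 came next, before *Thbs1* at 0.340 ± 0.122 and *Ankrd1* at 0.0580 ± 0.0421. Each neighbour in this order overlapped the next down to *Ajuba*, while *Ajuba*, *Thbs1* and *Ankrd1* were apart from each other. After CD95-Ab *Cyr61* led at 73.0 ± 34.2 FPKM, with *Thbs1* at 32.4 ± 3.27, *Ctgf* at 14.8 ± 7.70 and *Yap1* at 13.5 ± 2.43. *Thbs1* had thus moved from the ninth place to the second, in a range that overlapped that of *Cyr61* and was apart from that of *Ctgf*. *Wwtr1* followed at 4.31 ± 0.478 FPKM, apart from *Yap1*, then *Amotl2* at 3.60 ± 0.774, *Tead1* at 3.37 ± 1.44, *Lats2* at 2.96 ± 0.500 and *Ankrd1* at 2.51 ± 1.45, each overlapping the next. *Ajuba* was lowest at 0.722 ± 0.0983 FPKM and apart from *Ankrd1*.

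Each member was also set against a relative in the same mouse, as the log2 ratio of their CPM values plus 0.1, so that the scaling of the library cancels. The 7 pairs were compared by an exact two-sided permutation test over 5 against 5 mice, whose smallest p is 0.00794, with Benjamini-Hochberg adjustment over the 7. In 3 pairs all treated mice were on one side of all controls. *Thbs1* over *Thbs2*, the other matrix thrombospondin of its subgroup, went from a log2 ratio of 0.28 ± 0.46 to 6.66 ± 0.63 (SD, n = 5, exact permutation adjusted p = 0.0185). *Thbs2* itself was at 1.52 ± 0.405 CPM after saline and 1.93 ± 0.854 CPM after CD95-Ab, which did not pass (edgeR FDR 0.382). *Tead1* over *Tead3*, another TEAD factor, went from 0.13 ± 0.39 to 2.05 ± 0.81 (exact permutation adjusted p = 0.0185). *Tead3* was at 8.15 ± 0.877 and 6.57 ± 1.54 CPM and did not pass (edgeR FDR 0.127).

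*Amotl2* over *Amotl1*, its fellow angiomotin, went down from 2.38 ± 0.75 to 0.40 ± 0.53 (SD, n = 5, exact permutation adjusted p = 0.0185). Here both genes moved in opposite directions: *Amotl1* rose from 3.84 ± 1.5 to 10.1 ± 3.39 CPM (log2 fold change 1.40, SE 0.28, edgeR FDR 0.00168) as *Amotl2* fell. *Wwtr1* over *Yap1* went from −1.99 ± 0.32 to −1.43 ± 0.29, a difference of 0.56 that missed the threshold (exact permutation p = 0.0317, adjusted p = 0.0556) and in which the groups overlapped. *Cyr61* over *Ctgf* differed by 0.11 (exact permutation adjusted p = 0.929), with ratios from 0.28 to 3.11 among the controls and from 1.39 to 2.93 among the treated mice, so the pair's ratio varied more between control mice than between groups. *Lats2* over *Lats1*, the other LATS kinase, differed by 0.17 (exact permutation adjusted p = 0.30). *Ajuba* over *Limd1*, a LIM adaptor of the same family, differed by 0.01 (exact permutation adjusted p = 0.929).

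**Figure D3:**
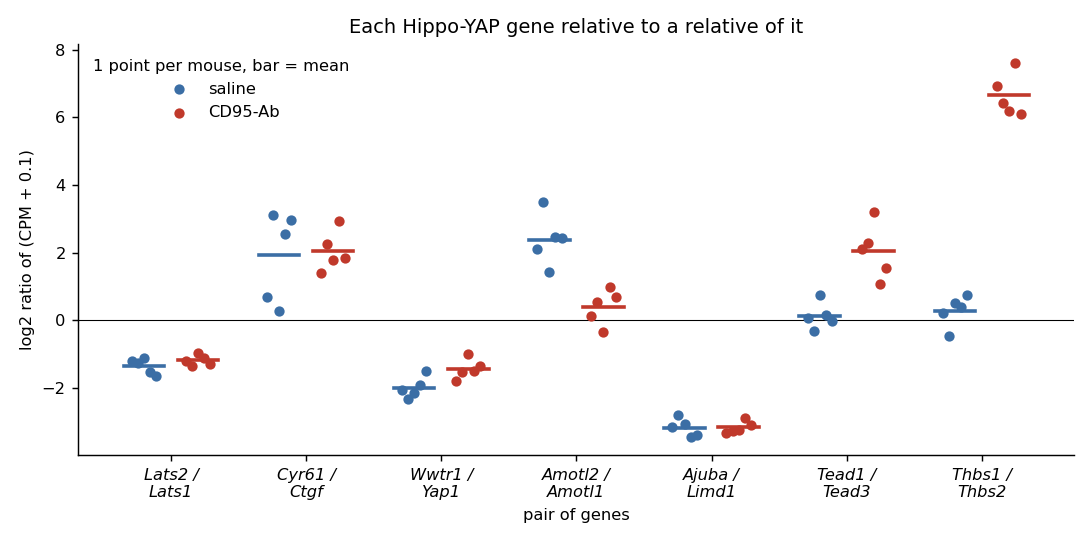
Log2 ratio of CPM plus 0.1 between each Hippo-YAP gene and a relative, with 1 point per mouse (5 saline in blue, 5 CD95-Ab in red) and a bar at the group mean. The groups are apart for Amotl2 over Amotl1, which is lower after CD95-Ab, and for Tead1 over Tead3 and Thbs1 over Thbs2, which are higher.

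Of the other pathway genes, 53 regulators were listed in the files and 47 were tested. Of these 25 were higher after CD95-Ab, 4 were lower and 18 did not pass, with a median log2 fold change of 0.45, beside 25.4% higher and 22% lower among all genes tested. The kinases that act upstream were mixed: 5 of 9 were higher and 1 was lower. *Map4k4*, which can phosphorylate LATS kinases, rose from 5.88 ± 0.980 to 41.0 ± 19.7 CPM (log2 fold change 2.80, SE 0.28, edgeR FDR 1.2e-05). *Map4k1*, its relative in blood cells, rose from 0.670 ± 0.212 to 1.83 ± 0.283 CPM (log2 fold change 1.44). *Taok2*, which activates the core kinases, fell from 41.7 ± 3.76 to 21.9 ± 4.26 CPM (log2 fold change −0.93, SE 0.14, edgeR FDR 0.000198), and every treated mouse was below every control.

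In the core kinase cassette 2 of 6 genes were higher and none was lower, a share near the 25.4% of all genes. *Lats1* was at 28.4 ± 1.98 CPM after saline and 33.5 ± 4.49 CPM after CD95-Ab (edgeR FDR 0.109). Scaffolds and junction proteins included 6 of 10 that were higher and 1 that was lower. *Rassf1*, an adaptor of the core kinases, rose from 6.58 ± 2.11 to 25.1 ± 6.14 CPM (log2 fold change 1.92, SE 0.23, edgeR FDR 3.88e-05). *Frmd6*, a FERM-domain protein upstream of the cascade, rose from 3.77 ± 0.542 to 12.5 ± 1.99 CPM (log2 fold change 1.73). *Amot*, the founding angiomotin, was at 8.52 ± 2.09 and 4.72 ± 1.92 CPM (log2 fold change −0.84, SE 0.27, edgeR FDR 0.0224), a call lost in 4 of the 10 fits that left out 1 mouse. So of the 3 angiomotins *Amot* and *Amotl2* were lower and *Amotl1* was higher.

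Both LIM adaptors passed, in opposite directions, and *Limd1* fell by 0.32 on the log2 scale (SE 0.11, edgeR FDR 0.0314), a call lost in 5 of the 10 fits with 1 mouse left out. Among all genes tested 25.4% were higher and 22% were lower. The 14-3-3 proteins, which hold phosphorylated YAP in the cytoplasm, and the degradation factors together had 6 of 11 higher and 1 lower. The latter was *Btrc*, a ubiquitin ligase subunit that targets phosphorylated YAP and beta-catenin, at 10.4 ± 0.903 and 7.08 ± 0.591 CPM (log2 fold change −0.55, SE 0.11, edgeR FDR 0.00193). Of 5 atypical cadherins in the files 3 were tested and all 3 were higher, as were 2 of 3 subunits of the STRIPAK phosphatase complex. These groups hold too few genes to read as a result about them. *Fat4*, a cadherin called higher, was at 0.231 to 0.686 CPM after saline and could not have passed the filter on that group alone. No other TEAD or VGLL gene passed among the 3 tested, and *Tead4* was too low to be tested, with between 0.119 and 0.310 CPM after saline and between 0.323 and 1.39 CPM after CD95-Ab.

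**Figure D4:**
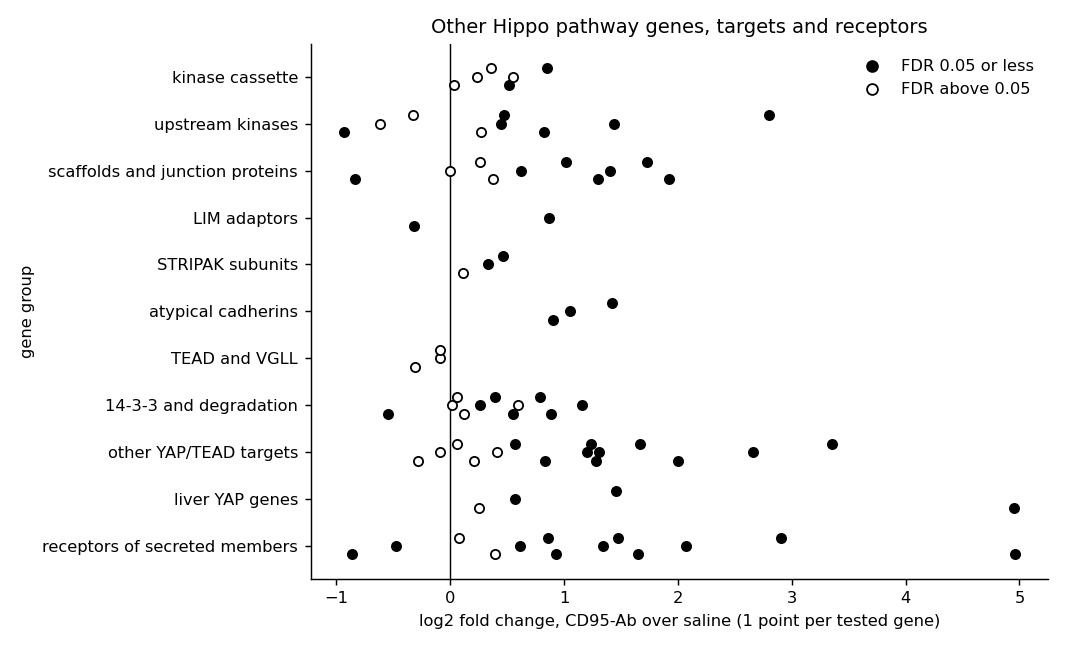
Log2 fold change, CD95-Ab over saline, of each tested gene in the other lists (8 groups of regulators, 2 groups of targets and the receptors), with 1 point per gene, filled at an FDR of 0.05 or less. Targets and receptors reach higher values than the core kinases, and the genes with negative filled points are 4 regulators and 2 receptors.

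Of 21 other genes known as YAP or TEAD targets 19 were tested. Of these 13 were higher, none was lower and 6 did not pass, with a median log2 fold change of 1.2, beside 25.4% higher and 22% lower among all genes tested. *Sox9*, a transcription factor of biliary cells, rose from 1.91 ± 0.877 to 58.4 ± 26 CPM (log2 fold change 4.95, SE 0.43, edgeR FDR 4.68e-06). *Sox9* is also 1 of 7 cholangiocyte markers, whose sum went from between 19.6 and 35.1 CPM to between 49.4 and 190 CPM and of which 4 of 6 tested were higher. *Sox9* and *Spp1*, which are in both lists, make up most of that sum, with 20.5 to 85.2 CPM and 24.5 to 86.8 CPM after CD95-Ab, while *Krt7* and *Prom1* did not pass (edgeR FDR 0.108 and 0.669). *Krt19*, called higher, was at 0.148 to 1.27 CPM after saline and could not have passed the filter on that group alone. *Gadd45a*, a stress-response gene, rose from 8.25 ± 6.71 to 84.9 ± 43.2 CPM (log2 fold change 3.35, SE 0.56, edgeR FDR 0.000451). *Myof*, which encodes the membrane-repair protein myoferlin, rose from 1.78 ± 0.449 to 11.3 ± 3.51 CPM (log2 fold change 2.66). *Tgfb2*, a TGF-beta ligand, rose from 0.269 ± 0.0922 to 1.12 ± 0.643 CPM (log2 fold change 2.00). At 0.169 to 0.389 CPM after saline, *Tgfb2* was below the filter's cutoff of 0.328 CPM in some saline mice. It could not have passed the filter on that group alone.

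Among the 10 further relatives of the target genes 5 were tested, of which 2 were higher and 3 did not pass, beside 25.4% higher among all genes, too few to read as a result about them. *Wisp1*, a CCN family member, went from 0.438 ± 0.200 to 1.53 ± 0.814 CPM (log2 fold change 1.84, SE 0.43, edgeR FDR 0.00385). Its saline range of 0.185 to 0.731 CPM could not have passed the filter on the saline group alone. *Ankrd2*, the relative of *Ankrd1* known from muscle, went from 0.129 ± 0.0990 to 1.01 ± 0.222 CPM (log2 fold change 2.83), and like *Ankrd1* it passed the filter on low counts only through the CD95-Ab group. The other CCN genes were below the filter.

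All 13 receptors of CCN proteins and thrombospondin 1 were tested, of which 9 were higher, 2 were lower and 2 did not pass, with a median log2 fold change of 0.93, beside 25.4% higher and 22% lower among all genes tested. *Itgam* and *Itgb2*, the subunits of a leukocyte integrin that binds CCN1, rose from 0.795 ± 0.291 to 25.1 ± 6.97 CPM (log2 fold change 4.96) and from 5.13 ± 3.02 to 38.6 ± 8.29 CPM (log2 fold change 2.91). In the same livers the sum over 7 neutrophil markers went from between 4.08 and 10.5 CPM to between 109 and 435 CPM, with 6 of 6 tested higher. The monocyte sum went from between 5.38 and 15.4 CPM to between 56.5 and 110 CPM, with 4 of 4 higher. Of the neutrophil markers, *Mmp8* passed the filter on low counts only through the CD95-Ab group. *Retnlg* (0.197 to 0.630 CPM after saline) could not have passed on the saline group alone. The same holds for the monocyte markers *Chil3* (0.115 to 0.445 CPM) and *Ly6c2* (0.148 to 1.84 CPM). The part of both marker lists in the integrin result was not tested. *Itgb3*, the beta subunit of the vitronectin receptor and of the platelet integrin, rose from 4.52 ± 0.613 to 18.9 ± 9.71 CPM (log2 fold change 2.07). *Itga6*, a laminin receptor subunit, rose from 1.68 ± 0.208 to 5.26 ± 1.11 CPM (log2 fold change 1.65).

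*Itgb5*, the partner of the alpha-v integrin, fell from 41.0 ± 7.21 to 22.6 ± 3.06 CPM (log2 fold change −0.86, SE 0.14, edgeR FDR 0.000475), with every treated mouse below every control. *Lrp6*, a Wnt co-receptor that binds CCN2, was at 64.7 ± 7.59 and 46.5 ± 11.2 CPM (log2 fold change −0.48, edgeR FDR 0.0352), a call lost in 4 of the 10 fits that left out 1 mouse.

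The secreted targets are known as products of stellate and endothelial cells, and markers of both moved with them. The sum over 8 stellate markers went from between 209 and 281 CPM to between 421 and 648 CPM, with 5 higher and 1 lower. Among all genes tested 25.4% were higher and 22% were lower. The sum over 7 sinusoidal endothelial markers went from between 48.6 and 123 CPM to between 157 and 289 CPM, with 6 higher. Log2 fold changes of single stellate markers ran from −2.06 (*Hand2*) to 1.53 (*Dcn*), and those of single endothelial markers from 0.29 (*Kdr*) to 3.41 (*Lyve1*). The mesothelial sum went from between 2.43 and 6.73 CPM to between 3.11 and 27.6 CPM, with none of 3 tested called. The Kupffer cell sum went from between 111 and 387 CPM to between 212 and 515 CPM. Of its 6 markers 2 were higher, a share near that of all genes. No defining marker of these lists was at 0 in every mouse, and their part in the Hippo-YAP results was not tested.

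Within the CD95-Ab group *Ctgf*, *Cyr61*, *Ankrd1* and *Tead1* varied most and were each highest in replicate 3, and *Thbs1* and *Wwtr1* varied less. Replicate 3 was above the group mean by 1.12 for *Ctgf*, 0.87 for *Cyr61*, 1.19 for *Ankrd1* and 1.04 for *Tead1* on the log2 scale, and by 0.30 for *Thbs1* and 0.24 for *Wwtr1*. Replicate 5 was below it by all 6 values except that of *Wwtr1*, at −0.51, −0.72, −0.88, −0.53, −0.16 and 0.08 in the same order. In replicate 3 the erythroid sum was above its group mean by 2.13, the mesothelial sum by 1.67 and the neutrophil sum by 0.71 on the log2 scale. The other sums ran from −0.16 (monocyte) to 0.66 (cholangiocyte) in that mouse. In replicate 4 the erythroid sum was also above its mean, by 1.41. There *Ctgf*, *Ankrd1* and *Tead1* were at −0.46, −0.20 and −0.45, and *Cyr61* was at 0.43. *Amotl2*, *Ajuba* and *Yap1* were not raised in replicate 3, with −0.05, −0.11 and −0.19. Without replicate 3 the count of Hippo-YAP genes was unchanged at 6 higher and 1 lower.

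**Figure D5:**
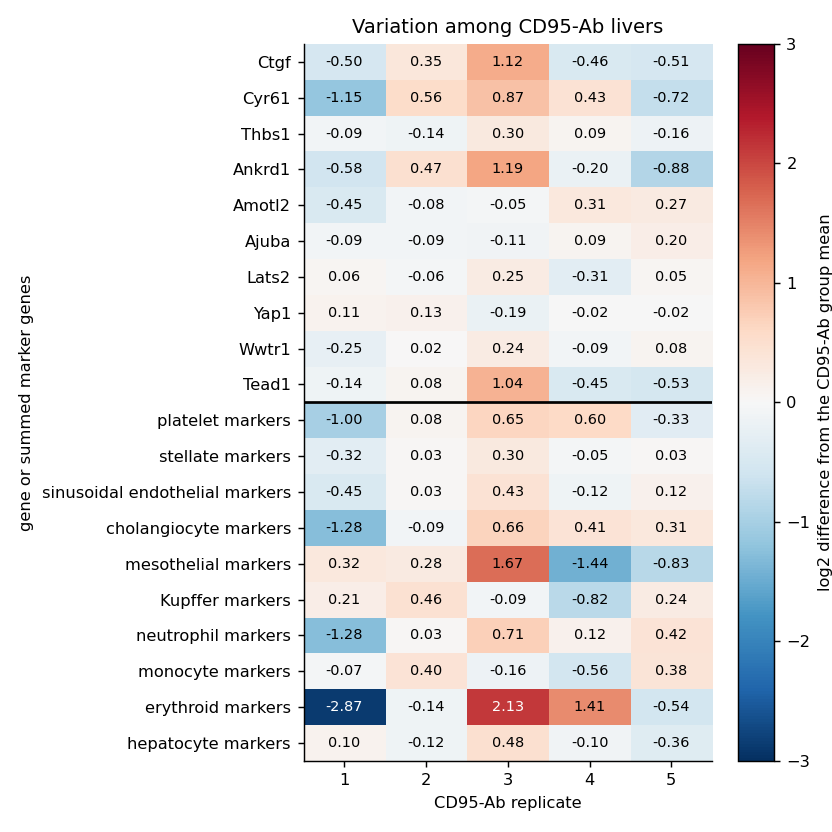
Difference of each CD95-Ab mouse from the mean of its group on the log2 scale, with the 10 Hippo-YAP genes above the line and the sums of 10 marker lists below it, and 1 column per replicate. Replicate 3 is red for Ctgf, Cyr61, Ankrd1 and Tead1, at 0.87 to 1.19, and for the erythroid sum at 2.13, while Amotl2, Ajuba and Yap1 stay near 0. The erythroid sum is also red in replicate 4, at 1.41.

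For each member past the log2 fold change of 2, the genes with the most similar pattern were listed by the root mean square difference in log2 CPM over the 10 mice, after each gene was centred on its mean. The nearest to *Ctgf* were *Emp1* at 0.38, *Timp3* at 0.39 and *Rhoj* at 0.40. The nearest to *Cyr61* were *Nfkbiz* at 0.26, *Celsr3* at 0.34 and *Map3k8* at 0.37. The nearest to *Ankrd1* were *Adam8* at 0.37, with *Hbegf* and *Dusp5* at 0.46. *Thbs1* had its nearest pattern in *Akap12* at 0.43, before *Gm26870* at 0.53 and *Lif* at 0.60. *Gm26870*, *Lif* and *Celsr3* had saline means of 0, 0.019 and 0.0708 CPM, at or near the limit of 3 fragments. Their values say little about differences among the saline mice. None of the genes listed as nearest was itself a member, and the measure is dominated by the gap between the 2 groups of mice that all these genes have.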

How the data were processed

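Total RNA (500 ng) from 10 livers was made into Illumina TruSeq libraries and sequenced in paired-end mode (2 × 100 bp). Per the labels, the authors used RSEM 1.2.19. The deposited tables hold, per gene, the expected count, here given in whole numbers, and the FPKM, both made by the authors with RSEM. The genome build and the mouse annotation release are not given in the sources used here.

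Ensembl IDs were named with GENCODE M21 (37606 of 38922 matched; 1316 did not), and 173 of 174 listed genes were found. Positions are from the same annotation (GRCm38). Expected counts were used as deposited. For CPM they were divided by the mouse's total over the 13719 genes kept, multiplied by its TMM factor (0.849 to 1.142). The test was edgeR 4.0.16 in R 4.3.3, quasi-likelihood, group only, TMM factors, on 13719 genes kept by filterByExpr (minimum count 10), with Benjamini-Hochberg adjustment and an FDR of 0.05. SE is the absolute log2 fold change over the square root of F. Groups and replicates came from the sample titles, which call the mice biological replicates. The steps were tested on simulated data. Alternatives were other normalizations, filters, thresholds and prior counts, DESeq2 1.42.0, an exact permutation test, the replicate number as a block, and leaving out each mouse.

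Members, lists (regulators, targets, paralogs, receptors, markers of 10 cell types and non-polyadenylated RNA) and tests were chosen with earlier results of these data known. Named besides the members are up to 4 genes per list and direction with the largest change past the FDR, the second gene of each pair, the 3 genes nearest in pattern to each member past a log2 fold change of 2, and defining markers. *Tead4*, the genes at the low-count filter and replicate 3 of the CD95-Ab group were singled out after their values were seen. Sequences are from RefSeq.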

Additional observations from a re-analysis of the deposited data

Results flagged for a closer look

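*Tead1* in CD95-Ab replicate 3 was at 55.7 CPM, while the other 4 mice of the group lay between 18.7 and 28.6 CPM. The gap to the nearest mouse was 0.73 of the range of the group, above Dixon's 95% critical value of 0.71 for 5 samples. This was 1 of 34 sets of values examined, and chance alone marks about 1 in 20. The same mouse was the highest of its group for *Ctgf*, *Cyr61*, *Thbs1*, *Ankrd1*, *Lats2* and *Wwtr1*, none of which passed that limit.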

How the results depend on the processing

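Counts of Hippo-YAP genes higher after CD95-Ab (6 to 7 with 1 mouse left out) and of those past a log2 fold change of 2 (4 in every such fit) stayed within 1.5 times of the reported count under all alternatives run. *Ankrd1* could not be tested where at least 10 fragments in every mouse were required. The lower counts are small and less stable. At an FDR of 0.01 none of the Hippo-YAP genes (0), 2 regulators and 1 receptor were lower, and without composition factors 1 receptor was lower. With 1 mouse left out the lower counts ranged from 0 to 1 for Hippo-YAP genes (0 without saline replicate 2 or 4, or CD95-Ab replicate 1 or 2), from 2 to 6 for regulators (2 without saline replicate 1 or 2, or CD95-Ab replicate 2 or 3) and from 1 to 2 for receptors (1 without saline replicate 1 or 3, or CD95-Ab replicate 1 or 2). The *Cyr61* over *Ctgf* difference ranged from −0.30 to 0.41, *Ajuba* over *Limd1* from −0.06 to 0.10, and *Wwtr1* over *Yap1* from 0.45 to 0.68, which passed without saline replicate 5 (0.68, exact permutation adjusted p = 0.0278). The cause was not tested.

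Replicate numbers are shared by both groups but mice with the same number did not deviate together (mean r 0.037, from −0.274 to 0.257, against −0.006 between numbers). With the number as a block edgeR called 5987 genes in place of 6495, *Lats2* passed (0.40, FDR 0.0403) and *Limd1* did not (−0.32, FDR 0.0726). The paired differences of *Amotl2* over *Amotl1* (−1.98), *Tead1* over *Tead3* (1.92) and *Thbs1* over *Thbs2* (6.38) had an exact sign-flip adjusted p of 0.109, where 5 pairs allow no unadjusted p below 0.0625. Depth limits *Ankrd1*, with 20 saline fragments in all.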
